A study of Mus musculus with 36 samples.

Results

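RNA-seq of mouse embryonic stem cells (ESCs) lacking JARID2 was compared with that of their matched wild-type ESCs, over all genes in the count files. The libraries were chosen by their labels, 3 of J2KO ESCs and 3 of J2WT ESCs, which are 6 of the 36 libraries in the series, and each held counts for 55401 genes. Both lines came from the same earlier study, carry the strain label C57BL/6 and differ by the JARID2 knockout. They were grown with serum at 20%, LIF, a GSK3 inhibitor at 3 µM and a MEK inhibitor at 1 µM, the 2i condition that holds ESCs in the naive state. Counts in genes were 16082221 to 18026492 per J2KO ESC library and 15924615 to 16615845 per J2WT ESC library. Libraries of a group differed by more than 2-fold in 2 to 10 of the 13432 genes tested, and nothing in the sources says whether they were separate cultures, so a p-value here reflects the spread among the libraries, which may be technical. One mutant line was set against 1 wild-type line, so the knockout and any other difference between the lines cannot be told apart.

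Polycomb repressive complex 2 (PRC2) places methyl groups on lysine 27 of histone H3, a mark of silenced developmental genes. Its core of EZH2 or EZH1, EED, SUZ12 and RBBP4 or RBBP7 joins 1 of 2 sets of accessory subunits. PRC2.1 holds a Polycomb-like protein (PHF1, MTF2 or PHF19) with EPOP or PALI1, and PRC2.2 holds JARID2 with AEBP2. JARID2 binds nucleosomes that carry the ubiquitin mark placed by PRC1 and stimulates the enzyme, and canonical PRC1, whose CBX subunit reads the methyl mark, can compact the chromatin. In ESCs these complexes lie mainly over CpG-rich promoters of genes for development that are off or low.

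Levels below are CPM, read counts relative to library size with TMM scaling across the 36 libraries, given for the 3 libraries in order of replicate number or as mean ± SD (n = 3). Fold changes and adjusted p-values come from the quasi-likelihood test of edgeR with Benjamini-Hochberg adjustment over all genes tested. A gene was called when its adjusted p was under 0.05 and its absolute log2 fold change was over 1.

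The targeted gene itself, Jarid2 (chromosome 13, 44729474 to 44921643 in GRCm38), stood at 467, 459.9 and 443 CPM in J2WT ESCs and at 409.7, 413 and 411 CPM in J2KO ESCs. The groups did not overlap, but the log2 difference was -0.14 (SE 0.03, adjusted p = 4.04e-04), below the size needed for a call. Counts over the whole gene do not show whether a part of the transcript is missing, so they do not check the label. Pluripotency genes were high in both groups, which fits the labelled cell type. Pou5f1, the gene for OCT4, was at 834 ± 42.7 CPM in J2WT and 815 ± 16.8 in J2KO ESCs. Nanog was at 793 ± 15.2 and 1038 ± 19.1 CPM, Sox2 at 590.2 ± 22.3 and 874 ± 6.84, and Klf4 at 376 ± 2.67 and 538 ± 1.34. The EpiLC marker Fgf5 was at no more than 0.193 CPM in any of the 6 libraries, and the feeder marker Col3a1 at no more than 0.129. Other markers of these kinds were above the count limit and differed between the groups. The EpiLC markers Otx2, Pou3f1 and Dnmt3b had log2 differences of 1.01, 2.05 and -1.56, and all were called. The feeder markers Col1a1 (-1.94) and Thy1 (1.10) were called as well.

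Without JARID2, 942 genes rose and 851 fell, which is 7.01% and 6.34% of the 13432 genes tested. The median change was 2.79-fold among the genes that rose and 2.75-fold among those that fell, and the median log2 difference of all genes tested was 0.0109. Changes over 8-fold were seen in 52 of the genes that rose and in 73 of those that fell. At an adjusted p under 0.05 with no limit on size, 9520 genes differed, so the limit of 2-fold sets which genes are called. An unadjusted p under 0.05 was reached by 9788 genes, 72.9% of those tested, so a list in which most members reached it is near what any genes show. The counts of called members of a list stand likewise beside the 7.01% that rose and 6.34% that fell over all genes tested, and the lists themselves were not tested.

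**Figure D1:**
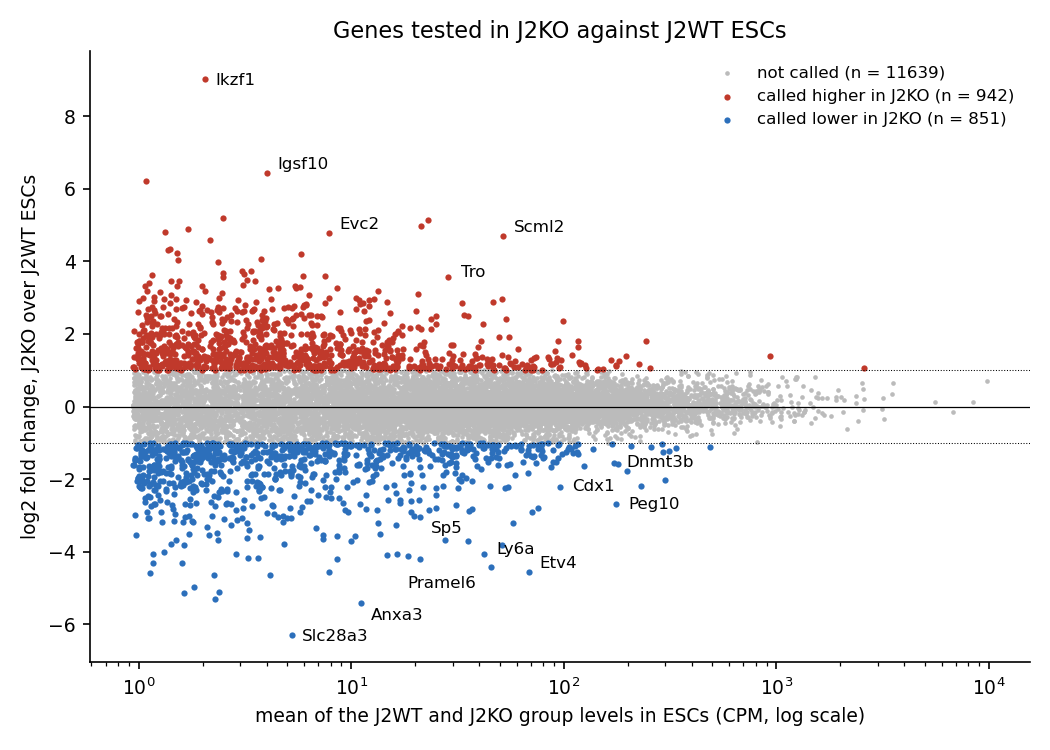
Each point is a gene, with its mean level over the 6 libraries in CPM (log axis) across and the log2 fold change of J2KO over J2WT ESCs up, and with the called genes in colour and some of the named ones labelled. The 942 genes above and the 851 below the limits of a log2 fold change of 1 spread over nearly the whole range of levels, while Ikzf1, Igsf10 and Slc28a3 lie farthest from 0 at low levels.

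Among the 15 genes with the largest increases, 7 lie on the X chromosome, which holds 7.43% of all genes that rose. Scml2, which encodes a Polycomb protein related to the fly Sex comb on midleg, was at 3.74, 3.61 and 4.22 CPM in J2WT ESCs. In J2KO ESCs it was at 98.2, 103 and 98.1 CPM, a 26.0-fold rise (log2 4.70, SE 0.07, adjusted p = 6.81e-21). All 3 mutant libraries stood far above all 3 wild-type libraries.

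The neighbouring armadillo repeat genes Armcx2 and Armcx3 rose as well. Armcx2 went from 1.37, 1.23 and 1.39 CPM to 40.4, 41.5 and 42.6 (31.2-fold, adjusted p = 3.30e-19). Armcx3 had 1 count over the J2WT libraries and 103 over the J2KO libraries, a ratio of 98.3 with a 95% exact interval of 17.3 to 3920 that covers counting error only. Leaving out any J2KO library put Armcx3 under the count limit, so it was not tested there. Trpc5os, another X-linked gene of the 15, stood at 1.28 ± 0.0755 and 44.8 ± 1.34 CPM. Tro, which encodes the adhesion-related protein trophinin and was picked out after its values were seen, rose 11.8-fold from 4.49 ± 0.211 to 52.6 ± 1.92 CPM.

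Ikzf1, the gene for the lymphoid transcription factor IKAROS, had no count in any J2WT ESC library and 3.98, 3.97 and 4.38 CPM in the J2KO libraries. Against a floor of 3 counts over the J2WT group, it was at least 62.7-fold higher. Igsf10 rose from 0.0833 ± 0.095 to 7.94 ± 0.452 CPM. Others of the 15 were Evc and Evc2, whose products act in Hedgehog signalling at the primary cilium, Ttc21b, a part of the intraflagellar transport machinery, and Spag16, a part of the central apparatus of motile cilia. Ttc21b stood at 0.56, 0.774 and 0.441 CPM in J2WT and at 10.6, 11.9 and 10.6 in J2KO ESCs, an 18.6-fold rise (adjusted p = 3.40e-14).

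Evc and Evc2 start 1605 bases apart on opposite strands of chromosome 5. Evc stood at 0.187, 0.129 and 0.063 CPM in J2WT ESCs and at 5.17, 4.52 and 4.91 in J2KO ESCs (36.5-fold, adjusted p = 3.01e-12). Evc2 was at 0.498, 0.258 and 0.882 CPM against 15.3, 16.3 and 14.1 (27.6-fold, adjusted p = 1.02e-14). Both genes were thus near silence in J2WT ESCs and separate fully from it in J2KO ESCs.

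Another wild-type line had other levels of several of these genes. In ESCs of the PclWT line, the wild-type control of the lines without Polycomb-like proteins, Evc was at 29.2 ± 0.581 CPM and Evc2 at 46.8 ± 1.44. Ttc21b was at 24.8 ± 1.41 CPM in PclWT, Tro at 57.9 ± 5.29 and Armcx2 at 18.0 ± 0.543. Each of these 5 genes was thus higher in PclWT than in J2WT ESCs, and Evc, Evc2, Ttc21b and Tro were higher in PclWT than in J2KO ESCs as well. Scml2, at 13.4 ± 1.83 CPM in PclWT, lay nearer to J2WT. The levels stand side by side and the lines were not tested against each other.

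The promoters of Evc and Evc2 are shown because the pair rose together and both genes lie by a SUZ12 site, and that of Sp5 because it lies by a SUZ12 site of another class and fell. They are the 250 bases before each RefSeq start in GRCm38.p6, 5′ to 3′ on the strand of the gene, with CG dinucleotides in capitals. Evc is at chr5:37336882-37337131 (minus strand), Evc2 at chr5:37338228-37338477 (plus strand) and Sp5 at chr2:70474673-70474922 (plus strand).
Evc: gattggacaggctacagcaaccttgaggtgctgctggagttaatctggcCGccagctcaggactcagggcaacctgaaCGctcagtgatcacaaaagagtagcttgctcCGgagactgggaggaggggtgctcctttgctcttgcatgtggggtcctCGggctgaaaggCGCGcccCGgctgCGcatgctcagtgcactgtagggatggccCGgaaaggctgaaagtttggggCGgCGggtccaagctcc
Evc2: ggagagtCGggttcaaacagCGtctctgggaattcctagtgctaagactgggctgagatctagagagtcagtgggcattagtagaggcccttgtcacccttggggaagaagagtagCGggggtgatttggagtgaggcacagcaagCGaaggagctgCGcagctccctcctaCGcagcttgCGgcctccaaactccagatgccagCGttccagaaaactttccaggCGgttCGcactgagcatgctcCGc
Sp5: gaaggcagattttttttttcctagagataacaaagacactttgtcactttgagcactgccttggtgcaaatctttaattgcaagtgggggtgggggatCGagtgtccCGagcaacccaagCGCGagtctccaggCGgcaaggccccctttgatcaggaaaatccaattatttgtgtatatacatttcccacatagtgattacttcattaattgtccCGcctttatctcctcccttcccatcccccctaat
Evc and Evc2 each hold 11 CG dinucleotides, and 35.6% of the 32851 promoters in the table hold as many or more. Sp5 holds 6, as many as or more than which are held by 50.4%.

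Of the 15 genes with the largest decreases, none is on the X chromosome. Etv4, an ETS transcription factor that responds to FGF and ERK signalling, fell from 133, 129 and 132 CPM to 5.82, 5.27 and 5.44 (23.7-fold, log2 -4.57, SE 0.06, adjusted p = 1.00e-21). Slc28a3, a nucleoside transporter, fell from 10.4 ± 1.34 to 0.12 ± 0.119 CPM, and Anxa3, an annexin, from 21.7 ± 1.57 to 0.502 ± 0.223. For each of these genes every J2KO library lay below every J2WT library.

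Pramel6 and Pramel7, PRAME-like genes of the early embryo and of naive ESCs, start 9.47 kb apart and both fell. Pramel6 was at 87.3, 87.8 and 85.0 CPM in J2WT ESCs and at 4.51, 3.53 and 3.92 in J2KO ESCs (21.5-fold, adjusted p = 1.30e-20). Pramel7, named here after its values were seen, fell 11.5-fold. PclWT ESCs had 11.7 ± 0.341 CPM of Pramel6 and 17.6 ± 3.68 of Pramel7, so Pramel6 in PclWT lay nearer to the mutant than to J2WT. Cd3g and Cd3d, genes for chains of the T cell receptor complex with starts 1355 bases apart, fell 34.8-fold and 17.2-fold from 4.63 ± 0.819 and 27.8 ± 2.89 CPM.

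Ly6a, which encodes the surface antigen SCA-1, was at 79.5 ± 2.04 CPM in J2WT and 4.72 ± 0.419 in J2KO ESCs, and at 0.521 ± 0.318 in PclWT ESCs. Tlx2, a homeobox gene that responds to BMP, fell 18.3-fold from 40.0 ± 0.282 to 2.16 ± 0.382 CPM. The visual system homeobox gene Vsx1 fell 39.8-fold from 4.47 ± 0.404 CPM.

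**Figure D2:**
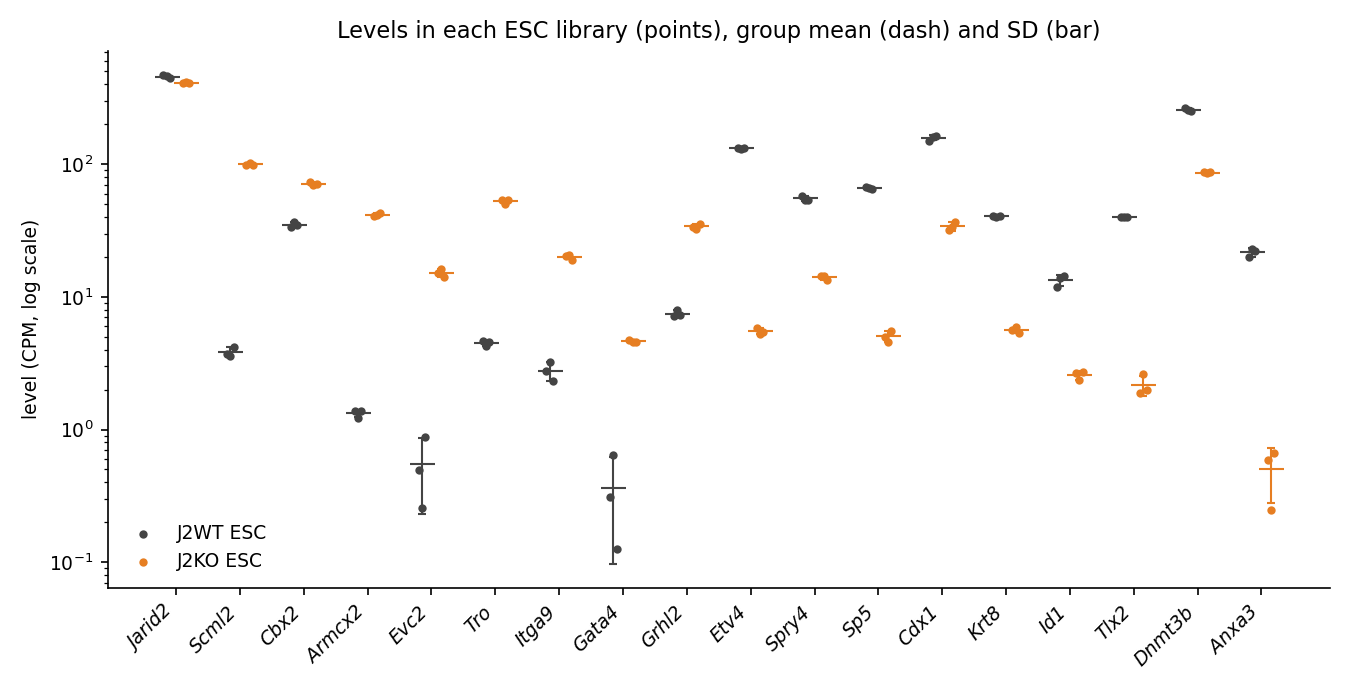
CPM on a log axis in each of the 3 J2WT and 3 J2KO ESC libraries (points) with the group mean (dash) and SD (bar), for 18 genes. The other 17 are called genes, so their means lie over 2-fold apart by the rule for a call (of all called genes, 940 of 942 that rose and 849 of 851 that fell had groups that do not overlap, beside 9827 of 13432 tested), while Jarid2 shifts from 457 ± 12.1 to 411 ± 1.64 CPM.

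The Polycomb machinery itself was mostly within the limits. None of the 6 genes for core PRC2 subunits was called by edgeR or DESeq2, although 4 had an unadjusted p under 0.05. Suz12 stood at 618 ± 21.9 and 780.3 ± 10.5 CPM, Ezh2 at 212 ± 0.752 and 189.8 ± 0.738, and Eed at 313 ± 5.77 and 304 ± 4.1. None of the 6 PRC2.1 accessory genes was called by either tool either, with 5 at an unadjusted p under 0.05. Mtf2 was at 583 ± 5.28 and 569.9 ± 3.21 CPM, and Epop had a log2 difference of 0.56 (444 ± 17.7 and 651 ± 9.66 CPM). Of the PRC2.2 pair Jarid2 and Aebp2, neither was called by edgeR or DESeq2 and both had an unadjusted p under 0.05, with Aebp2 at 183 ± 0.777 and 151 ± 3.63 CPM.

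Canonical PRC1 had 2 of 12 genes that rose, Scml2 and Cbx2. None fell by edgeR or DESeq2, with 2 below 0 at an unadjusted p under 0.05. Cbx2, a reader of the H3K27 methyl mark, went from 33.4, 36.5 and 34.6 CPM to 72.8, 69.3 and 71.5 (2.06-fold, adjusted p = 1.75e-13). Suz12, Epop and Cbx2 lie on chromosome 11, whose genes shifted as a whole, as given further on. Cbx7, the main CBX of ESCs, had a log2 difference of 0.37 and was not called. Of 14 variant and shared PRC1 genes, Pcgf1 fell 2.09-fold from 25.4 ± 1.33 to 12.0 ± 1.14 CPM. Its partner in variant PRC1, Kdm2b, which binds unmethylated CpG, stood at 125 ± 1.85 and 70.9 ± 1.22 CPM (log2 -0.81), short of a call. The H3K27 demethylase genes Kdm6a and Kdm6b had log2 differences of 0.43 to 0.44, both at an unadjusted p under 0.05, and neither was called by edgeR or DESeq2. Kdm6b lies on chromosome 11 too.

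Naive pluripotency genes stayed high. Of 15 tested, 1 fell and none rose by edgeR or DESeq2, with 15 at an unadjusted p under 0.05 and a median log2 difference of 0.397. The gene that fell was Gbx2, a homeobox gene downstream of LIF, at 34.7, 34.5 and 37.5 CPM in J2WT and 9.98, 12.5 and 11.9 in J2KO ESCs (3.09-fold, adjusted p = 1.58e-13). Esrrb, at 1042 ± 26.2 and 1292 ± 10.3 CPM, and Prdm14, at 48.1 ± 0.984 and 70.3 ± 1.25, are examples of the others. In the list of LIF and STAT3 genes, no member of 10 was called by edgeR or DESeq2, all 10 had an unadjusted p under 0.05, beside 72.9% of all genes tested, and the median log2 difference was 0.281. Among 11 general pluripotency genes, Sall1, a zinc finger factor that partners NANOG, rose 2.4-fold to 256 ± 3.62 CPM.

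Of 14 formative and primed genes tested, which come on after the naive state, 7 rose and 2 fell, beside 7.01% and 6.34% of all genes tested, with a median log2 difference of 0.978. Grhl2, a factor that opens epithelial enhancers, rose from 7.22, 8 and 7.24 CPM to 33.8, 32.5 and 35.5 (4.56-fold, adjusted p = 1.58e-15). Pou3f1, or OCT6, rose 4.14-fold to 5.56 ± 0.776 CPM, and Sox3 6.36-fold to 4.06 ± 0.573. Most of these levels remained far below those of EpiLCs, the formative-like cells made over 2 days with activin A and bFGF, in which J2WT had 141 ± 2.2 CPM of Grhl2 and 558 ± 7.97 of Pou3f1. Otx2 passed with a log2 change of 1.01, and was not called without J2KO replicate 1 (0.988), J2KO replicate 3 (0.951) or J2WT replicate 2 (0.926). The members that fell were Etv4 and Dnmt3b, a de novo DNA methyltransferase, which went from 264, 255 and 252 CPM to 87.4, 85.5 and 86.7 (2.95-fold, adjusted p = 1.88e-18). Dnmt3b was the 1 gene of 10 for DNA methylation that was called, while Dnmt3a stood at 38.0 ± 1.82 and 61.1 ± 0.252 CPM.

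Genes of FGF and ERK signalling, the pathway that the MEK inhibitor blocks, held calls in 1 direction. Of 12 tested, 4 fell and none rose by edgeR or DESeq2, with 11 below 0 and 1 above 0 at an unadjusted p under 0.05, and the median log2 difference was -0.685. Spry4, a feedback inhibitor of the pathway, stood at 58.1, 53.8 and 53.7 CPM in J2WT and 14.4, 14.4 and 13.3 in J2KO ESCs (3.9-fold lower, adjusted p = 2.73e-16). Etv1 fell 4.71-fold to 8.68 ± 1.32 CPM, and the receptor gene Fgfr2 4.54-fold to 0.439 ± 0.0732. Dusp6, an ERK phosphatase, had a log2 difference of -0.85 and was not called. Both groups are described as grown with the MEK inhibitor, and PclWT ESCs in the same medium had 8.32 ± 0.66 CPM of Spry4.

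Targets of Wnt signalling held 3 genes of 10 that fell and none that rose by edgeR or DESeq2, while 4 had a difference above 0 at an unadjusted p under 0.05. Of the 10 genes, 4 lie on chromosome 11, whose genes shifted up as a whole, as given further on. Sp5, a direct target of β-catenin, went from 67.2, 66.0 and 65.0 CPM to 4.99, 4.58 and 5.57 (13.0-fold, adjusted p = 1.27e-19). Cdx1 fell 4.62-fold from 158 ± 6.76 to 34.0 ± 2.41 CPM, and T, or Brachyury, 6.33-fold from 3.22 ± 0.0498 to 0.502 ± 0.134. Axin2, a feedback member of the same pathway, had a log2 difference of -0.73 and was not called. PclWT ESCs had 4.31 ± 0.602 CPM of Sp5, close to the J2KO level. T and Cdx1 are also in the list of primitive streak and mesendoderm genes, in which 3 of 5 tested fell. The other was Gsc, at 1.35 ± 0.0393 and 0.605 ± 0.202 CPM, which was not called without J2KO replicate 2 (log2 -0.896).

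Genes of the BMP pathway and its Id targets had 2 of 13 that fell, Id1 and Id2, inhibitors of basic helix-loop-helix factors. Over all genes tested 6.34% fell, and a count of 2 is small in a list that was not tested. Id1 was at 13.4 ± 1.35 CPM and then at 2.58 ± 0.199, with no overlap of the groups (5.13-fold, adjusted p = 1.31e-12). Id2 fell 6.07-fold to 1.74 ± 0.279 CPM. In the Nodal and activin list 4 of 12 rose, among them Lefty1 and Lefty2, secreted inhibitors of Nodal, and Smad3, a transducer. Lefty1 rose 3.46-fold from 7.01 ± 0.832 to 24.1 ± 1.28 CPM and Lefty2 2.32-fold from 73.0 ± 1.25 to 168 ± 5.48. Smad3 was not called without J2KO replicate 3 (log2 0.902), J2WT replicate 2 (0.986) or J2WT replicate 3 (0.973). In the Notch list, the ligand genes Jag1 (3.25-fold, to 44.8 ± 3.63 CPM) and Jag2 (2.19-fold) rose, and Dll3 fell 2.02-fold. The call of Dll3 was lost without replicate 3 of J2KO (log2 -0.965) or of J2WT (-0.843).

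Of 12 trophoblast genes tested, 6 fell and 1 rose, and the median log2 difference was -1.057. Cdx2, the homeobox gene that drives the trophoblast lineage, fell from 5.98, 4.19 and 6.05 CPM to 0.416, 0.372 and 0.133 (16.8-fold, adjusted p = 6.80e-11). Krt8, a simple epithelial keratin, fell 7.19-fold from 40.7 ± 0.364 to 5.61 ± 0.257 CPM. The others that fell were Gata3, Gata2, Plet1 and Tfap2c, and the gene that rose was the X-linked placental homeobox gene Esx1, at 1.15 ± 0.626 and 4.19 ± 0.823 CPM. Elf5 and Hand1, further markers, were under 0.4 CPM in every library. The summed level of the 16 members was 191 to 200 CPM in J2WT and 109 to 112 in J2KO libraries.

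Primitive endoderm genes moved both ways, with 3 of 16 up, 3 down and a median of -0.035. Gata4, a master factor of this lineage, rose from 0.311, 0.645 and 0.126 CPM to 4.75, 4.58 and 4.58 (12.8-fold, adjusted p = 1.84e-10). The laminin gene Lamb1 rose 3.15-fold to 22.6 ± 1.98 CPM. Dab2, an endocytic adaptor, fell 8.11-fold from 3.96 ± 0.324 to 0.484 ± 0.163 CPM, and Hnf4a and Amn fell too. The markers Gata6, at 1.2 ± 0.208 and 0.574 ± 0.224 CPM, and Sox17, at 0.189 ± 0.106 and 0.986 ± 0.324, were below the count limit, so Gata4 rose without a high level of the other factors of the lineage. The summed level of the list was 3410 to 3530 CPM in J2WT and 2830 to 2870 in J2KO libraries.

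Neuroectoderm genes were mostly below the count limit, and of 5 tested 2 rose, among them Map2, a microtubule protein of neurons, from 2.59 ± 0.0816 to 5.3 ± 0.203 CPM (2.06-fold). In the germline list, Stra8 and Tex101 fell 2.8-fold and 2.83-fold among 13 tested. No 2-cell-like gene was tested, since their summed level was 2.51 to 2.96 CPM in J2WT and 0.995 to 1.54 in J2KO libraries. Fibroblast and feeder genes held 2 that rose, Fbn1 and Thy1, and 2 that fell, Col1a1 and Pdgfrb, of 7 tested. Fbn1, which encodes fibrillin, rose 8.4-fold from 1.34 ± 0.485 to 11.3 ± 0.345 CPM. Col1a1 fell from 2.43 ± 0.156 to 0.622 ± 0.0805 CPM, so these markers did not move together. Thy1 was not called without J2WT replicate 1 (log2 0.850), nor Pdgfrb without J2KO replicate 1 (-0.917) or J2WT replicate 2 (-0.908). Of the epithelial and mesenchymal genes, 3 of 11 rose, Cldn6, Esrp1 and Cdh2, which are genes of both kinds, and N-cadherin (Cdh2) was at 1.64 ± 0.274 and 9.34 ± 0.738 CPM.

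Of 16 Hox genes tested, 6 rose and 6 fell. All 3 tested genes of the Hoxd cluster rose, with Hoxd13 at 0.872, 0.967 and 1.01 CPM and then at 7.24, 7.5 and 7.63 (7.85-fold, adjusted p = 2.00e-12). Of 5 tested genes of the Hoxc cluster, Hoxc10, Hoxc11 and Hoxc12 fell, with Hoxc12 at 6.16 ± 0.484 and 2.55 ± 0.209 CPM. The Hoxa cluster had 1 up and 2 down of 4, and the Hoxb cluster, on chromosome 11, 2 up and 1 down of 4. Several of these calls rest on single libraries. Without J2WT replicate 3, the log2 change was -0.873 for Hoxa3, -0.951 for Hoxb13 and 0.994 for Hoxd8, and without J2WT replicate 1 it was 0.958 for Hoxd9. Hoxb4 was at 0.898 without J2KO replicate 2 and at 0.964 without J2WT replicate 2, and Hoxa3 was also lost without J2KO replicates 1 (-0.952) or 2 (-0.985) or J2WT replicate 1 (-0.977). The summed level of all Hox genes was 58.6 to 59.5 CPM in J2WT and 56.8 to 58.5 in J2KO libraries, so it hardly moved while its members did.

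Imprinted genes also moved in both directions, with 5 up and 4 down of 25. Peg10 and Sgce, paternally expressed genes that start 99 bases apart, fell together: Peg10 went from 324, 297 and 293 CPM to 45.9, 47.5 and 47.1 (6.47-fold, adjusted p = 1.21e-20) and Sgce fell 3.64-fold. The maternally expressed RNA H19 fell 12.7-fold from 4.37 ± 0.721 to 0.333 ± 0.142 CPM. Grb10, a growth inhibitor, rose 3.51-fold from 51.9 ± 1.9 to 181 ± 5.04 CPM, and Ndn, Phlda2, Cdkn1c and Dlk1 rose 2.2-fold to 3.44-fold. Slc38a4 fell 2.03-fold, a call lost without J2WT replicate 1 (log2 -0.999).

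The cell cycle list had 2 of 9 that rose, Cdkn1c and Cdkn2a, the locus of p16 and ARF that PRC2 is known to silence, which went from 6.28 ± 0.0954 to 16.8 ± 0.552 CPM (2.69-fold). Among 14 p53 targets none was called by edgeR or DESeq2, with 13 at an unadjusted p under 0.05, as 72.9% of all genes tested were, and the median log2 difference was 0.34. Bnip3 was the 1 call among 17 glycolysis and hypoxia genes and Ddit3 the 1 among 12 genes of the integrated stress response, with both higher by 2.51-fold and 2.43-fold. Of 17 clustered protocadherins tested, 1 rose. Genes of the mitochondrial genome had a summed level of 16400 to 19400 CPM in J2WT and 26300 to 27700 in J2KO libraries, and of 11 tested, mt-Cytb rose 2.11-fold and mt-Tp fell 2.05-fold, the latter a call lost without J2KO replicate 2 (log2 -0.980) or J2WT replicate 1 (-0.952). The part of this shift in the other results was not tested.

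**Figure D3:**
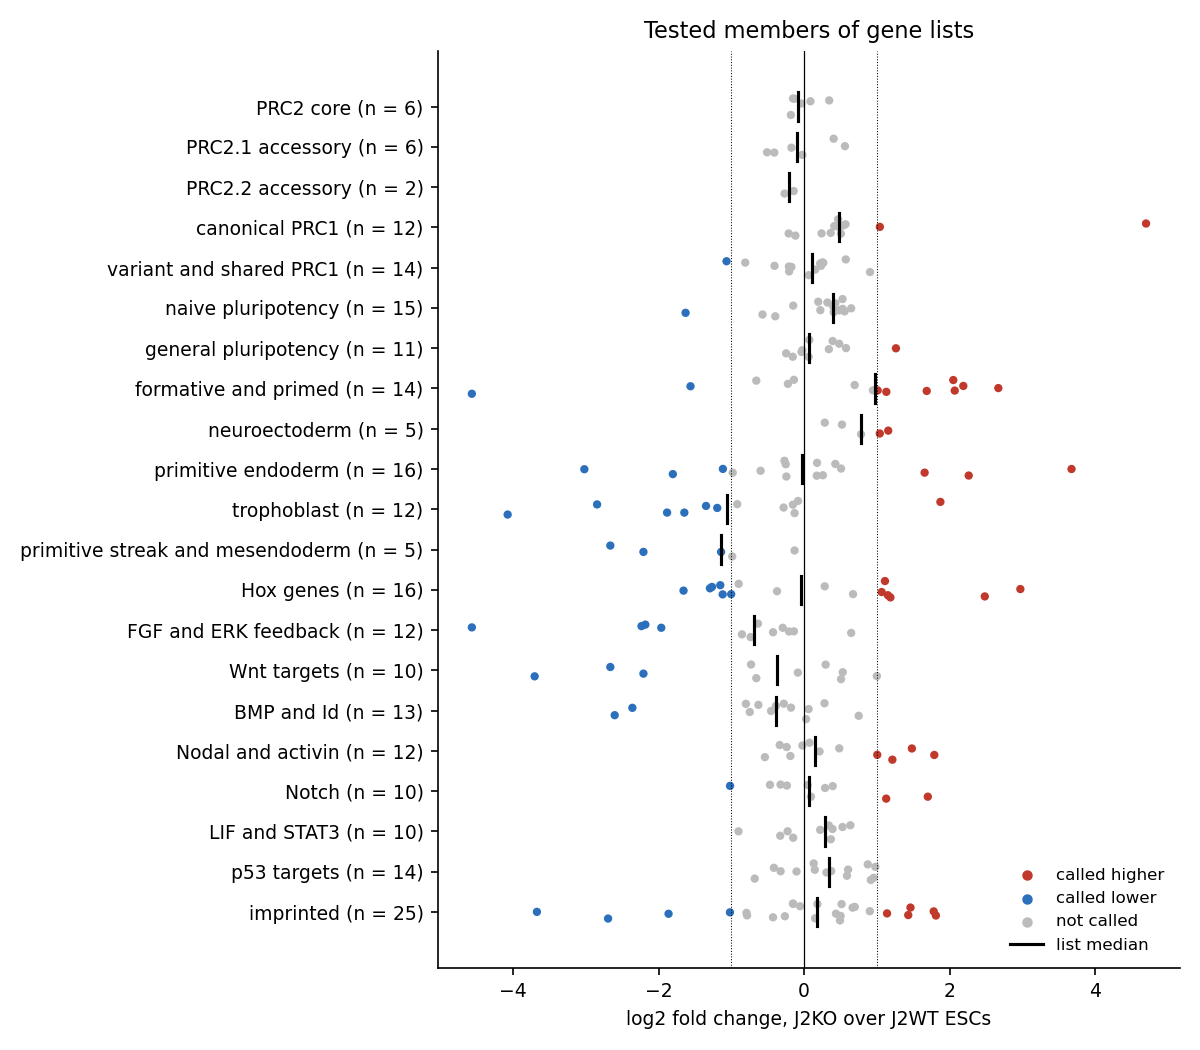
Log2 fold change of J2KO over J2WT ESCs for the tested members of 21 gene lists, with one row a list, one point a gene, called genes in colour and the median of each list as a line. The FGF and ERK list (median -0.685) and the trophoblast list (-1.057) lie mostly to the left of 0 and the formative and primed list (0.978) mostly to the right.

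The study sorted SUZ12 sites by how binding changed from ESCs to EpiLCs, into recruited, maintained and displaced, using lines that include J2WT. A gene was put in a class by a start site within 2000 bp. Of the 374 tested genes of the recruited class, 55 (14.7%) fell and 22 (5.88%) rose, beside 6.34% and 7.01% of all genes tested. In the maintained class the balance was the other way, with 252 of 977 (25.8%) up and 86 (8.8%) down. In the displaced class 25 of 59 (42.4%) rose and 3 (5.08%) fell. The median log2 differences were -0.17, 0.305 and 0.68, against 0.011 over all genes tested. These counts are a description with no test of the classes.

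A gene that is silent in one group passes the count limit only through the group in which it is on. Among genes over the limit in both groups, 20.7% of the 871 maintained genes rose and 7.81% fell, against 5.48% and 4.78% of all 12813 such genes. The recruited genes then had 5.51% up and 12.9% down, and the displaced genes 32% up and 6% down. Of 2462 maintained genes 39.7% were tested, and of the recruited and displaced genes 74.4% and 61.5%. The maintained sites analysed here are a part of those of the study, with none on chromosomes 9 and X.

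Evc, Evc2, Fam184a, Gata4 and Ccdc85a led the maintained genes that rose. Fam184a was at 0.421 ± 0.126 and 5.7 ± 0.581 CPM, and Ccdc85a at 0.464 ± 0.0751 and 5.81 ± 0.382. The maintained genes that fell most were Vsx1, Slc44a5, Rcsd1, Pdzrn4 and Cdc42ep1. Cdc42ep1, an effector of the GTPase CDC42, fell 11.9-fold from 19.3 ± 0.571 CPM.

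Among recruited genes, Itga9, an integrin gene, rose 7.29-fold from 2.76 ± 0.448 to 20.0 ± 0.863 CPM and Lrrn2 4.41-fold to 34.6 ± 0.508. Those that fell most were Tlx2, Sp5, Khdc3, Map6 and Slc16a9. Khdc3, a gene of the maternal subcortical complex, went from 28.3, 30.4 and 29.7 CPM to 3.5, 2.66 and 2.99 (9.54-fold, adjusted p = 1.68e-16). Map6, which stabilizes microtubules, fell 9.21-fold to 2.59 ± 0.485 CPM.

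Armcx3, Esrp1, Prr36 and Kcnk1 were among the displaced genes that rose most. Kcnk1, a potassium channel gene, went from 1.25, 0.451 and 0.819 CPM to 4.28, 3.9 and 4.18 (4.88-fold, adjusted p = 1.97e-08). Esrp1, an epithelial splicing regulator, rose 8.14-fold to 2.1 ± 0.545 CPM, where J2WT EpiLCs had 118 ± 2.4. Arl4c, Dnmt3b and Cbr3 were the 3 that fell.

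The changes were not spread evenly over the genome. On chromosome 11 the median log2 difference of 1102 tested genes was 0.454, with 80.8% of them above 0, 116 up (10.5%) and 33 down (2.99%). The medians of the 3 J2KO libraries over the J2WT mean were 0.436, 0.427 and 0.44, while those of the J2WT libraries lay between -0.002 and 0.002. Each of 13 windows of 10 Mb with at least 20 tested genes along this chromosome had a median between 0.276 and 0.691, so the shift ran along its whole length. On chromosome 14 the median was raised in a stretch: 55 of 164 tested genes (33.5%) between 50 and 70 Mb rose and 5 fell, with a median of 0.828, while the rest of the chromosome had a median of 0.009. In that rest 35 of 276 tested genes (12.7%) still rose, beside 5.82% outside chromosomes 11, 14, X and Y, and in the window from 40 to 50 Mb 10 of 37 (27%) did. The bounds of the stretch were picked out after the values were seen, so its contrast with the rest is favoured by the choice. Its windows differed, with a median of 0.875 from 50 to 60 Mb and of 0.45 from 60 to 70 Mb.

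Prmt5, an arginine methyltransferase within this stretch, was at 97.9, 97.8 and 97.7 CPM and then at 235, 232 and 239 (2.42-fold). Sall2, a zinc finger gene there, rose 5.56-fold from 2.21 ± 0.239 CPM, and Gata4 lies within it as well. Prmt5 and Sall2 were named after their values were seen. Ikzf1 and Grb10 lie on chromosome 11.

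On the X chromosome 70 of 478 tested genes (14.6%) rose and 25 (5.23%) fell, with a median of 0.098. Of the Y-linked genes of the list, Ddx3y was at 216 ± 7.44 and 108 ± 4.54 CPM, Eif2s3y fell 2.09-fold from 128 ± 4.97 to 60.8 ± 2.54, and Uty was at 51.2 ± 2.63 and 28.4 ± 0.959. Kdm5d rose 2.55-fold from 2.53 ± 0.0881 CPM. All other chromosomes had medians from -0.072 to 0.061. In EpiLCs of the same lines the medians were 0.5 on chromosome 11, 0.857 in the stretch of chromosome 14 and -0.878 on Y. Whether the copy number of these chromosomes differs between the lines was not tested.

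Without the genes of chromosomes 11, 14, X and Y, a choice made after the values were seen, 665 genes rose and 772 fell of 11405 tested. The shares of the classes among those genes were similar in direction: 24.2% of maintained genes rose and 9.9% fell, 41.2% and 5.88% of displaced genes, and 4.72% and 15.3% of recruited genes. Of the members of all gene lists, 32 rose and 35 fell without these chromosomes, beside 44 and 39 with them. Some of the list counts given above thus rest on genes of these chromosomes.

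**Figure D4:**
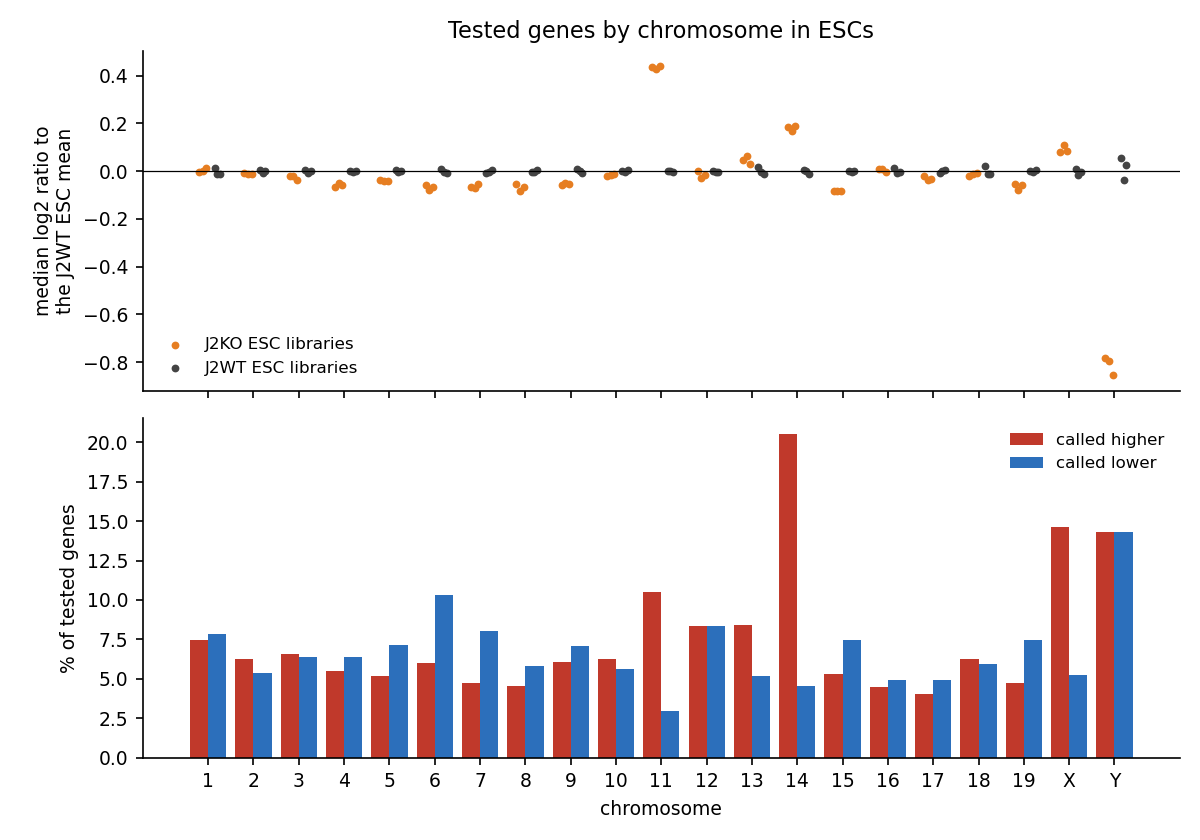
Upper panel: median log2 ratio of each ESC library to the J2WT mean for the genes of each chromosome, with one point a library. Lower panel: percent of tested genes called higher and lower on each chromosome. The 3 J2KO points stand at 0.427 to 0.44 on chromosome 11 and below 0 on Y, and the bars for higher genes are tallest on chromosome 14 (20.5%), X (14.6%) and Y (1 of 7 genes).

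Many called genes lay beside genes called the same way. Of the genes that rose, 30.5% had the next tested gene on either side called higher too, against 11.7% of genes that were not called higher. For genes that fell it was 29%, against 10.9%. The values without chromosomes 11, 14, X and Y were 28.5% against 9.94% and 29.7% against 11.6%. Reads that overlapped more than 1 gene were not counted for any gene.

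The same lines were also profiled as EpiLCs, in 3 J2KO and 3 J2WT libraries that had no part in the ESC comparison. In that comparison 859 genes rose (6.23% of those tested) and 361 fell (2.62%). Of the 942 genes that rose in ESCs, 838 were tested in EpiLCs, and 312 (37.2%) rose there and 6 fell, beside 5.11% and 1.91% of the genes tested at both stages. Of the 851 that fell in ESCs, 616 were tested, and 125 (20.3%) fell and 17 rose. Both directions were thus kept more often than in the background, but most genes did not reach the limits at both stages. Without chromosomes 11, 14, X and Y, 197 of 587 (33.6%) and 116 of 562 (20.6%) were called the same way. The lines are the same at both stages, so the knockout and the line cannot be told apart here either.

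Trpc5os rose in both, at 0.226 ± 0.174 and 13.8 ± 0.835 CPM in EpiLCs, as did Scml2, at 7.53 ± 0.376 and 109 ± 6.29. H19 and Peg10 fell at both stages, H19 from 54.8 ± 0.798 to 8.28 ± 1.05 CPM in EpiLCs. Dnmt3b, 2.95-fold lower in ESCs, was at 2213 ± 31.2 and 1935 ± 46.2 CPM in EpiLCs.

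A test of the difference between the stages over 13929 genes called 740 genes (5.31%) with a greater change in ESCs and 836 (6%) with a lesser one, on a signed scale. Of the genes that rose in ESCs, 902 were in that test and 391 had a greater change in ESCs than in EpiLCs, 8 a lesser one. Of those that fell, 755 were in it and 363 were lower in ESCs by more than in EpiLCs, 2 by less. These genes had been chosen for their change in the same ESC libraries, which favours a greater change there, so nothing is read from the split. Evc illustrates the first kind, at 12.3 ± 0.165 and 27.3 ± 1.3 CPM in EpiLCs, and Spry4 the second, at 162 ± 3.73 and 126 ± 3.07.

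JARID2 was also removed from ESCs without PHF1, MTF2 and PHF19: these triple knockout (TKO) cells lack the proteins that define PRC2.1, and the quadruple knockout (QKO) cells lack JARID2 in addition. QKO against TKO ESCs therefore gives the change that goes with loss of JARID2 without those proteins, in other lines and libraries, at 8097673 to 10182668 counts in genes. Here 167 genes rose (1.37%) and 391 fell (3.21%). A stretch of chromosome 6 from 110 to 140 Mb, picked out after its values were seen, had a median log2 difference of -0.624 between QKO and TKO, with 33 of 174 tested genes lower and 1 higher. Of the genes that rose in J2KO ESCs, 720 were tested, and 36 (5%) rose and 79 (11%) fell, beside 1.21% and 2.87% of the genes tested in both. Of those that fell in J2KO, 536 were tested, and 58 (10.8%) fell and 24 (4.48%) rose. Without that stretch of chromosome 6, the same counts were 36 up and 77 down of 710, and 50 down and 24 up of 522. The medians were -0.175 and -0.084, so genes that rose in J2KO ESCs did not tend to be higher in QKO.

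Many genes changed differently in J2KO over J2WT ESCs and in QKO over TKO ESCs. The test of the difference over 13017 genes called 1285 (9.87%) above 0 and 899 (6.91%) below. Of the genes that rose in J2KO ESCs, 693 of 850 in that test had a greater change there than in QKO over TKO, and of those that fell, 492 of 713 had a greater fall. As these genes were chosen for their change in the same J2KO and J2WT libraries, such a split is favoured by the choice and nothing is read from it. Evc2 was at 27.7 ± 0.676 CPM in TKO and 18.7 ± 0.155 in QKO ESCs, and Armcx2 at 31.4 ± 0.812 and 20.1 ± 1.01, both against their direction in J2KO. Sp5 was at 8.54 ± 1.7 and 0.678 ± 0.399 CPM in these lines. It fell there by 3.67 on the log2 scale beside 3.70 in J2KO ESCs. By the edgeR test of the difference, the 2 changes differed by -0.05 (SE 0.63, adjusted p = 0.957). Etv4 fell in both comparisons, from 67.4 ± 0.999 to 33.1 ± 1.11 CPM in QKO, with a larger fall in J2KO (difference -3.56, SE 0.09). Otx2 rose in both, from 1.32 ± 0.243 to 24.1 ± 2.41 CPM in QKO, with the larger rise there. Since QKO and J2KO are of different origin, line and genotype cannot be told apart in this comparison either.

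**Figure D5:**
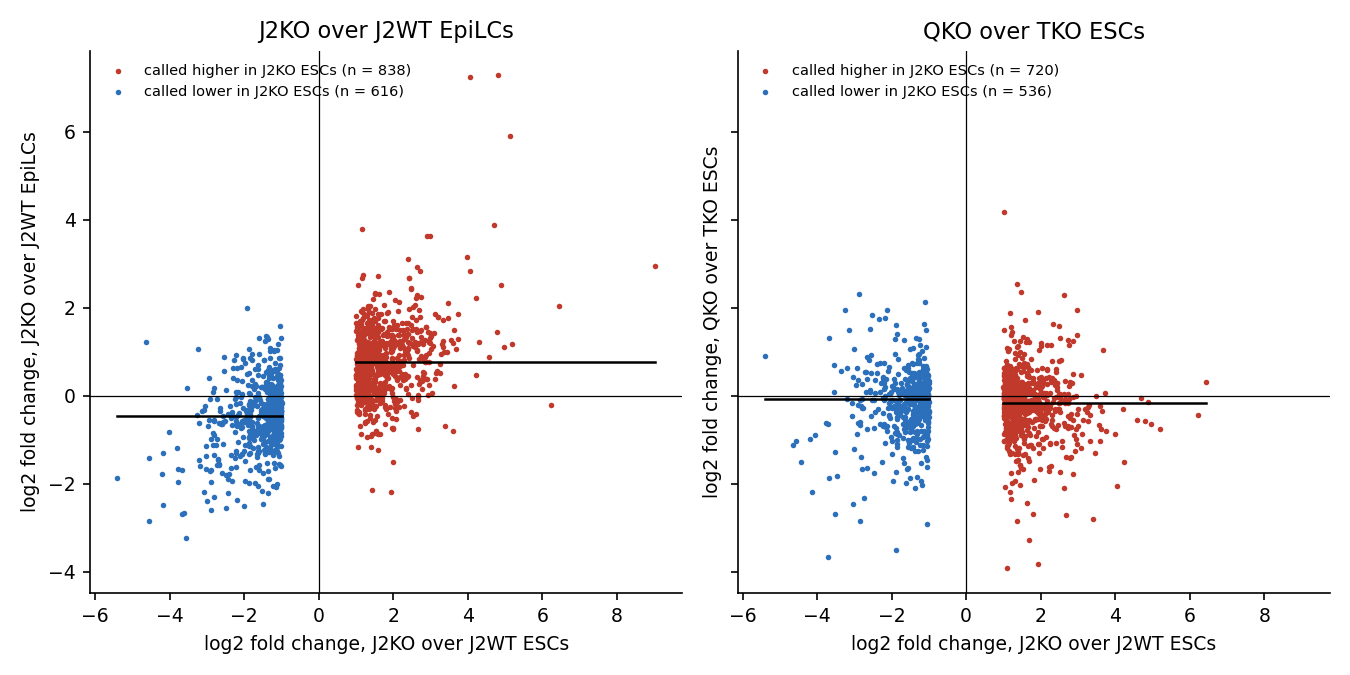
Log2 fold changes in other libraries of the genes called in J2KO ESCs, with J2KO over J2WT EpiLCs and QKO over TKO ESCs in separate panels and the median as a black line. Genes that rose in J2KO ESCs had a median of 0.77 in EpiLCs and -0.175 in QKO, and genes that fell had medians of -0.453 and -0.084.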

How the data were processed

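RNA-seq libraries were made from poly(A) RNA (1 µg, RIN above 9) with NEBNext kits, which do not mark strand. The values deposited by the authors are STAR's raw read counts per gene on GRCm38, not normalized, of which the unstranded column was taken. Reads in no single gene (25.65% to 26.71% of each of the 6 ESC libraries) were left out. Reads over more than 1 gene are among those left out. Strand was not used, so reads of an antisense transcript outside its annotated gene count for the gene they lie in, and near-identical genes are uncertain. Symbols and positions came from GENCODE annotation of GRCm38 (55141 of 55401 genes).

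Groups were taken from the labels. Each comparison was fitted in edgeR 4.0.16 (R 4.3.3, glmQLFit and glmQLFTest, TMM) on the libraries of its groups. Genes were tested where the normalized count averaged 15 or more. SEs were derived from the F statistic. Differences between effects were contrasts of 4 groups in 12 libraries. Chromosome medians per library used a pseudocount of 0.5 CPM. Alternatives included DESeq2 1.42.0. On simulated counts for J2KO against J2WT ESCs (13447 genes), 100% of the changed genes tested were recovered at log2 changes of 1.5 and of 3, and 0 unchanged genes were called. The simulated spread was that of these libraries, and only 100 genes were changed at each size. The simulation therefore checks the procedure and gives no error rate for the calls in the data. Figures were drawn in Python 3.11.15 with matplotlib 3.10.9.

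Named genes were the members of the gene lists, the 15 called genes with the largest change in each direction whose groups did not overlap (clone names left out), the 5 of each Polycomb class in each direction, and the 5 with the largest differences between effects in each direction; others are said to be named after their values were seen, and a few genes under this rule are not reported here. Genes named for a difference between effects were limited to those whose J2KO and J2WT ESC libraries did not overlap. The comparison, lists and tests were chosen with earlier results of these data known. Promoter sequences were found for 70.8% of genes that rose and 73% of those that fell, under the 80% needed, so a comparison of promoter composition was void. SUZ12 sites were those of the study, with 1998 of its maintained sites used, and no site within the Hoxa and Hoxd clusters was analysed here. No depth limit other than counting error is covered by the interval and floor given.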

Additional observations from a re-analysis of the deposited data

Results flagged for a closer look

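The change without JARID2 differed between ESCs and EpiLCs, by the test of the difference, in 740 genes above 0 and 836 below. The genes named in this section were picked among those whose J2KO and J2WT ESC libraries did not overlap. Among the largest positive differences (log2 change in ESCs minus log2 change in EpiLCs) were those of Armcx3 (6.46), Ikzf1 (6.11), Cubn (6.09) and Alox15 (4.62). Cubn, which encodes the endocytic receptor cubilin, was at 13.0 ± 1.47 CPM in J2WT and 0.66 ± 0.238 in J2KO EpiLCs and at no more than 0.297 CPM in any ESC library. Alox15, a lipoxygenase gene, fell in EpiLCs from 7.3 ± 0.312 to 2.44 ± 0.452 CPM and was also near 0 in ESCs. Armcx3 was at 2.85 ± 0.349 and 2.43 ± 0.606 CPM in EpiLCs, so its difference rests on its near absence in J2WT ESCs.

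Among genes picked in this way, the largest negative differences were those of Slc28a3 (-7.27), Vsx1 (-6.61), Tie1 (-5.83), Rph3a (-4.6) and Tbx18 (-4.52). Tie1, an endothelial receptor gene, fell in ESCs from 4.37 ± 0.577 to 0.167 ± 0.0388 CPM and rose in EpiLCs from 1.12 ± 0.243 to 2.57 ± 0.356. Slc28a3, Vsx1, Rph3a and Tbx18 were under 1 CPM in both EpiLC groups. The sizes of the differences of genes near 0 depend on the prior count and are no bounds.

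The change in J2KO over J2WT ESCs differed from that in QKO over TKO ESCs, by the test of the difference, in 1285 genes above 0 and 899 below. Among genes picked in the same way, those with the largest positive differences were Ikzf1 (9.66), Ccnd2 (7.66), Armcx3 (6.54), Pdha2 (6.47) and Gap43 (6.42). Ccnd2, a D-type cyclin gene, went from 21.8 ± 1.86 CPM in TKO to 0.546 ± 0.134 in QKO ESCs, and was at 0.0847 ± 0.0383 and 0.477 ± 0.0797 CPM in J2WT and J2KO. It lies in the stretch of chromosome 6 from 110 to 140 Mb whose median was -0.624 in QKO over TKO. Gap43, a gene of growing axons, was at 9.49 ± 0.391 and 1.26 ± 0.549 CPM in TKO and QKO. By the same pick, the largest negative differences were those of Slc28a3 (-6.89), Anxa3 (-6.33), Tmprss5 (-5.7), Ly6a (-5.22) and Khdc3 (-5.22). Khdc3 fell in J2KO ESCs but rose from 6.03 ± 0.583 CPM in TKO to 23.2 ± 2.18 in QKO. No group of the ESC comparison was large enough for a search for outlying libraries.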

How the results depend on the processing

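The counts of genes that rose and fell in J2KO ESCs were 927 and 861 with DESeq2, 930 and 858 with RLE normalization, 1181 and 1062 with the filter of edgeR, 869 and 735 among protein-coding genes, and 1126 and 843 with the spread taken from 12 libraries. Without a count filter they were 1591 and 1518, and 438 maintained genes rose. By the adjusted p alone they were 4935 and 4585; recruited genes then had 105 up and 185 down, maintained genes 511 and 256, displaced genes 45 and 6, and list members 164 and 119. With the ESC call alone relaxed in this way and the 2-fold limit kept in the other comparison, 504 genes were higher at both stages. Likewise 62 were higher and 130 lower in both J2KO and QKO. By the limits of the report without chromosomes 11, 14, X and Y, 197 genes were higher at both stages.

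Leaving out 1 library at a time gave 892 to 1010 genes up and 802 to 916 down in ESCs. The counts were 297 to 336 and 120 to 133 for genes called the same way in EpiLCs, and 32 to 39 and 54 to 60 in QKO. For the differences between stages they were 675 to 778 and 798 to 905, and between J2KO and QKO over TKO 1261 to 1324 and 865 to 919. Displaced genes had 21 to 27 up and 3 down, maintained genes 231 to 265 and 77 to 93, recruited genes 19 to 23 and 49 to 57, and list members 41 to 43 and 36 to 41. Of 139 named genes called, 15 lost their call in a fit without 1 of the libraries in which they were still tested. None changed direction in 14 settings where tested. Genes that fell under the count limit in such a fit are not among the 15. Armcx3 is 1 of these, as it was not tested when any of the J2KO libraries was left out.

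With the replicate number as a block, 944 genes rose and 848 fell, and Hoxa3 lost its call (log2 -0.995). Smad3 lost its call with RLE normalization (0.998). Same-numbered ESC libraries did not deviate together (correlations -0.019, -0.009 and 0.032), so the numbers were not taken to pair the samples. At 15924615 to 18026492 counts a library, genes under about 1 CPM were mostly not tested.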

Other observations

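The non-coding RNAs of the X inactivation centre were low in all 6 ESC libraries. Xist was at 6.53 ± 0.431 CPM in J2WT and 9.42 ± 0.395 in J2KO ESCs, a log2 difference of 0.54 (SE 0.10, edgeR adjusted p = 9.28e-05) that was not called. Its antisense partner Tsix was at 5.57 ± 0.538 and 11.3 ± 0.484 CPM and rose 2.04-fold, a call lost without J2KO replicate 2 (log2 0.992), J2WT replicate 1 (0.991) or J2WT replicate 3 (0.986). Reads in the overlap of this pair were counted for neither gene.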
